A study of Homo sapiens with 6 samples.

Results

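The genes described here encode the proteasome and the factors that assemble or regulate it. They were taken from the array by name: every gene whose symbol starts with PSMA, PSMB, PSMC, PSMD, PSME, PSMF or PSMG and a number, together with ADRM1 and POMP. This gave 54 of 22411 genes tested, of which 47 encode subunits, assembly factors, activators or the inhibitor. The other 7 are symbols that the pattern also catches, 3 antisense RNAs, 2 pseudogenes and 2 genes of binding partners, and they are given apart at the end. PSMC5, PSMD7 and PSMD13 had no probe set annotated to them alone and are not analysed here.

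The cells were HCT-shSLBP, a derivative of the colorectal carcinoma line HCT116 named for a short hairpin RNA against SLBP, the protein that binds the stem-loop of replication-dependent histone mRNAs. The submitters title the series as one of histone-depleted cells. All cultures carried the same engineered background, 3 were left untreated and 3 received doxycycline at 2 µg/ml, and no treated culture of cells lacking the hairpin was analysed, so the drug and the hairpin cannot be told apart. The labels do not say whether the line is 1 clone or how long the drug was given. RNA of each culture was hybridised to 1 array.

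The proteasome degrades proteins that carry ubiquitin chains. Its barrel-shaped core particle is built from outer rings of PSMA (alpha) subunits, which gate the entrance, and inner rings of PSMB (beta) subunits, which hold the protease sites. A regulatory particle sits on the core. Its base contains a ring of PSMC ATPases that unfold the substrate, and its lid, made mostly of further PSMD subunits, removes the ubiquitin. In mammalian cells the genes of all these parts are known to be induced together when proteasome activity is short, through the transcription factor NFE2L1.

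Values are log2 signals, and a log2 change is treated minus untreated. "Fell" and "rose" mean an adjusted p under 0.05 from limma over all 22411 genes. The array has no unit of RNA per cell, so fewer copies per cell and a change in the mix of cells cannot be told apart. As a check of the labels, SLBP read 8.09, 8.04 and 8.08 without the drug and 7.38, 7.19 and 7.32 with it, with no overlap between the groups. The fitted change was -0.77 (SE 0.0553, limma adjusted p = 0.00322), to 58.6% of the level without the drug. An exact two-sided permutation test cannot go below p = 0.1 with 3 arrays in each group, and gave that value. Of 10 epithelial markers, EPCAM, CDH1, KRT8, KRT18 and KRT19 were bright, while CDH17, KRT20 and VIL1 lay within the range of 7 markers of blood and endothelial cells, whose mean signals ran from 1.97 to 4.59. No marker of blood, endothelium or fibroblasts passed the test, and the mean log2 signal of the blood and endothelial list was 3.58 to 3.63 in untreated and 3.56 to 3.67 in treated cultures. The mean signals of the 6 fibroblast markers ran from 1.73 to 6.32.

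Proteasome mRNAs were lower in treated cells across the core and the regulatory particle. Of the 47 genes, 22 fell and none rose by limma, where 3.27% of all genes fell and 2.93% rose (6.19% in either direction). None was higher at an unadjusted p under 0.05 either, while 30 were lower at that level, where 9.85% of all genes were higher and 12.7% lower. The decreases were small: members that fell kept between 71.8% and 89.9% of their untreated signal. Averaged over the 47 genes, the log2 signal was 7.93, 7.90 and 7.90 without the drug and 7.75, 7.73 and 7.74 with it, so each treated culture lay below each untreated one. Over all genes tested the same mean was 5.41 on every untreated array and 5.38 to 5.41 on the treated ones.

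Most of the falls were in the structural subunits. Of 29 genes that the name rule caught in the alpha and beta rings, the ATPases, the base and the lid, 20 fell, and the median log2 change was -0.25. All 29 had lower means, as had 13050 of all 22411 genes. Treated and untreated arrays did not overlap in 27 of the 29, where all 3 treated arrays lay below all 3 untreated ones in 16.7% of all genes. Proteasome subunits are bright on the array, and bright genes were called more often: of 9579 genes with a mean log2 signal of at least 6, reached by all 29 subunits, and a level chosen after the values were seen, 6.25% fell, 5.22% rose and 25.2% had treated arrays entirely below. Lower means were found in 5437 of those 9579 genes, and their median log2 change was -0.019, as it was over all genes. At an unadjusted limma p under 0.05, 1880 of the 9579 were lower and 1454 higher. Of all 47 members, 42 had a mean log2 signal of at least 6. Among the 18 other members 2 fell, PSME3 and POMP.

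**Figure D1:**
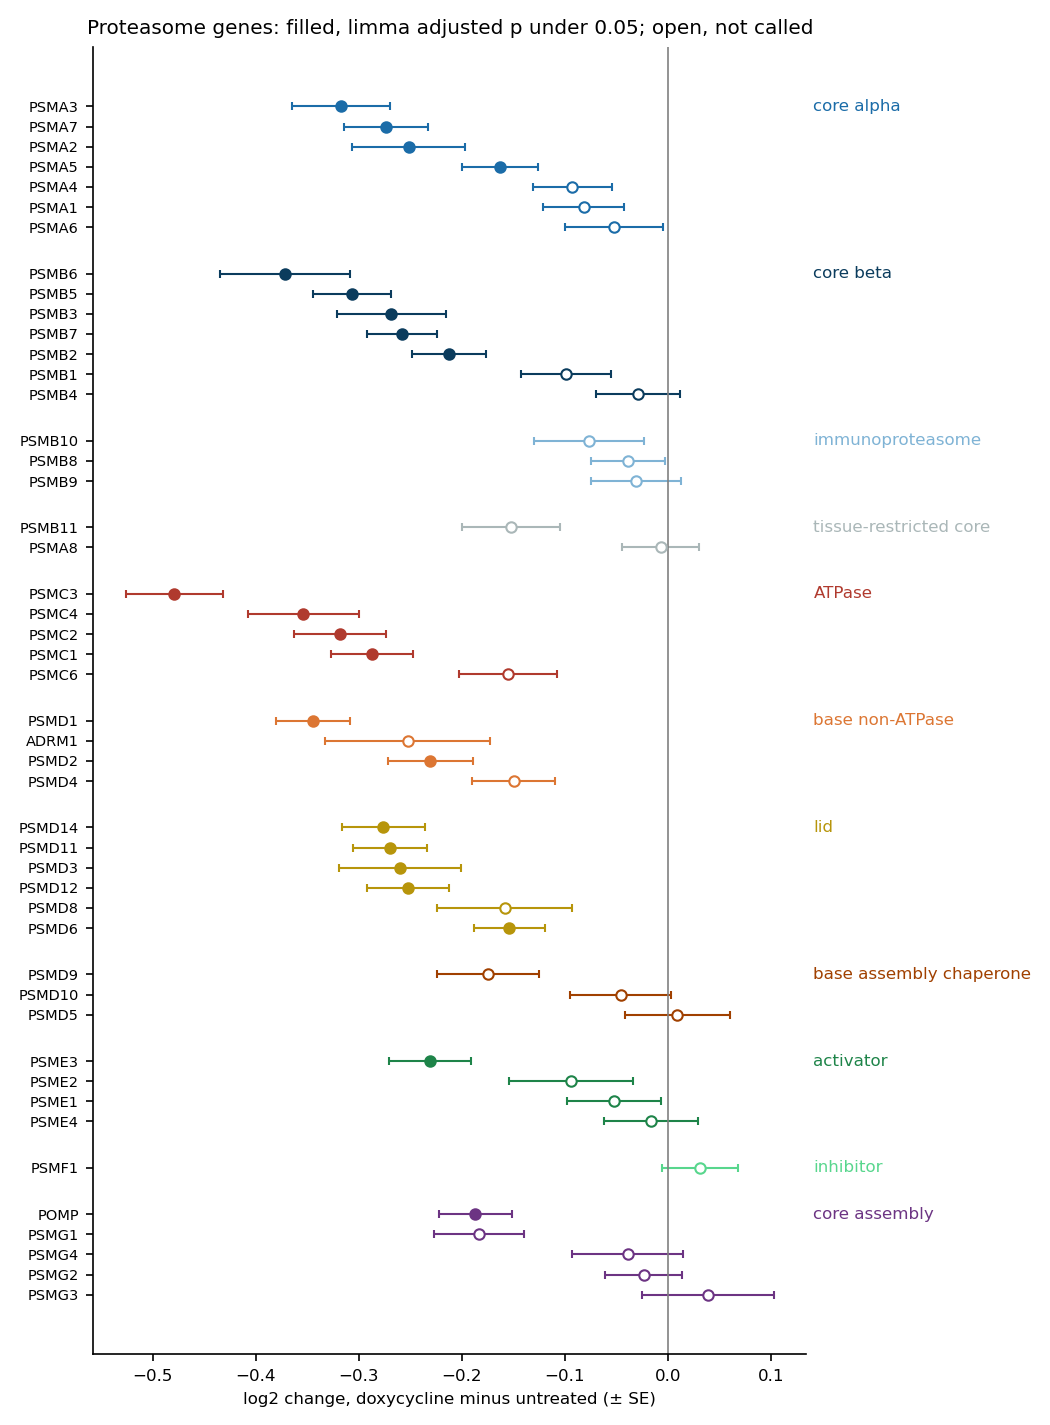
Log2 change (treated minus untreated, horizontal axis) with its standard error for each of the 47 proteasome genes, grouped by subcomplex; filled points were called and open points were not. The 5 structural groups lie to the left of zero throughout, from -0.48 for PSMC3 to -0.029 for PSMB4, while the immunoproteasome genes, the inhibitor and most assembly factors lie close to it.

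The number of calls rested on having all 6 arrays. Without doxycycline replicate 3, 2 of the 47 genes fell. Without untreated replicate 1 or untreated replicate 3, 4 fell in each case. Without untreated replicate 2 the number was 10, without doxycycline replicate 2 it was 13, and without doxycycline replicate 1 it was 16. Over all genes the share that fell dropped likewise, to between 0.308% and 2.4%. The 22 genes kept a negative change in every one of these fits, and PSMC3 and PSMD1 kept their calls in all 6.

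Promoter windows from RefSeq (GRCh38.p14, 250 bases before to 50 after the annotated gene start) were found for 41 of the 47 genes and searched on both strands for 3 motifs. The antioxidant response element bound by NFE2L1, searched as TGACNNNGC, was present in 14 of the 41 windows (34.1%), against 14.6% of the 15374 windows of genes tested. It lay in 5 of the 19 windows of members that fell and in 9 of the 22 windows of the others. The CCAAT box bound by NF-Y, searched as CCAAT, was in 18 of the 41 (43.9%, against 36.3% of all windows), in 12 of the 19 that fell and in 6 of the 22 others. The binding core of ETS factors, searched as CCGGAAG, was in 12 of the 41 (29.3%, against 13.7%), in 6 of the 19 and in 6 of the 22. Among all 585 windows of genes that fell, 17.6% held the first motif, 46.8% the second and 20.3% the third. These are matches of letters and not measured binding. The windows shown are those of the pair whose calls held with any array left out, PSMC3 and PSMD1, of the catalytic subunit PSMB5 and its interferon-induced counterpart PSMB8, and of PSMB3, which holds both NFE2L1 and NF-Y motifs. Capitals mark TGACNNNGC and CCAAT on either strand, which do not overlap in these windows, and every sequence runs 5′ to 3′ on the gene's strand.
PSMC3, chr11:47426390-47426689, minus strand: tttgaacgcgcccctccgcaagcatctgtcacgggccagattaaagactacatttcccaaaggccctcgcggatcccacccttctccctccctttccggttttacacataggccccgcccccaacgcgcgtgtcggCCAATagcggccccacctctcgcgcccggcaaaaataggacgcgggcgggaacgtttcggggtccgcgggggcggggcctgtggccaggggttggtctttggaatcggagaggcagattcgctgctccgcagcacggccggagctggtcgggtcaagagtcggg
PSMD1, chr2:231056617-231056916, plus strand: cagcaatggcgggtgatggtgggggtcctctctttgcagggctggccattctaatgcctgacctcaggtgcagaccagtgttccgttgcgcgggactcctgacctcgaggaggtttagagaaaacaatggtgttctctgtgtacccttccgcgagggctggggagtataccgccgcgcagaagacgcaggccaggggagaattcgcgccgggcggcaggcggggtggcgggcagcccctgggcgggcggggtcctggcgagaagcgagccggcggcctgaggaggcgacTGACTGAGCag
PSMB5, chr14:23035171-23035470, minus strand: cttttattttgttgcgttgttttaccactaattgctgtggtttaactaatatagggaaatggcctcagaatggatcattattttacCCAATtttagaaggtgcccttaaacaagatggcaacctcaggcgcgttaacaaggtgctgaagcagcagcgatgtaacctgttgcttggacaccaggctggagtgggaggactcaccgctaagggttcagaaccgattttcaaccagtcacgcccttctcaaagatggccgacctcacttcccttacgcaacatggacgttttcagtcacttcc
PSMB3, chr17:38752491-38752790, plus strand: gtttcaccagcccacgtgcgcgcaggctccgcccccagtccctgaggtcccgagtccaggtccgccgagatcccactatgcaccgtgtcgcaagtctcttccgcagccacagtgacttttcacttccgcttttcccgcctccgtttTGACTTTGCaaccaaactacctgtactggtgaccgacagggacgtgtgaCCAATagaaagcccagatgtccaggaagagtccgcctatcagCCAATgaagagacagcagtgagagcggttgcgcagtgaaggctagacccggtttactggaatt
PSMB8, chr6:32844630-32844929, minus strand: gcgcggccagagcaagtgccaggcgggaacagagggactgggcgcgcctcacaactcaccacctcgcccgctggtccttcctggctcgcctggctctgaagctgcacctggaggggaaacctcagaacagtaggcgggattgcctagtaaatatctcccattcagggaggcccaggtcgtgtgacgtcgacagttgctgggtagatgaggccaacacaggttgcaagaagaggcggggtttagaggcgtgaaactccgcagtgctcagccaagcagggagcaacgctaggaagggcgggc
In PSMC3 the CCAAT begins 114 bases before the gene start, and in PSMB5 it begins 164 bases before it. PSMB3 has TGACTTTGC from 104 bases before the start, then CCAAT from 55 and from 13 bases before it. The match in PSMD1, TGACTGAGC, lies after the gene start. The window of PSMB8 holds neither motif.

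**Figure D2:**
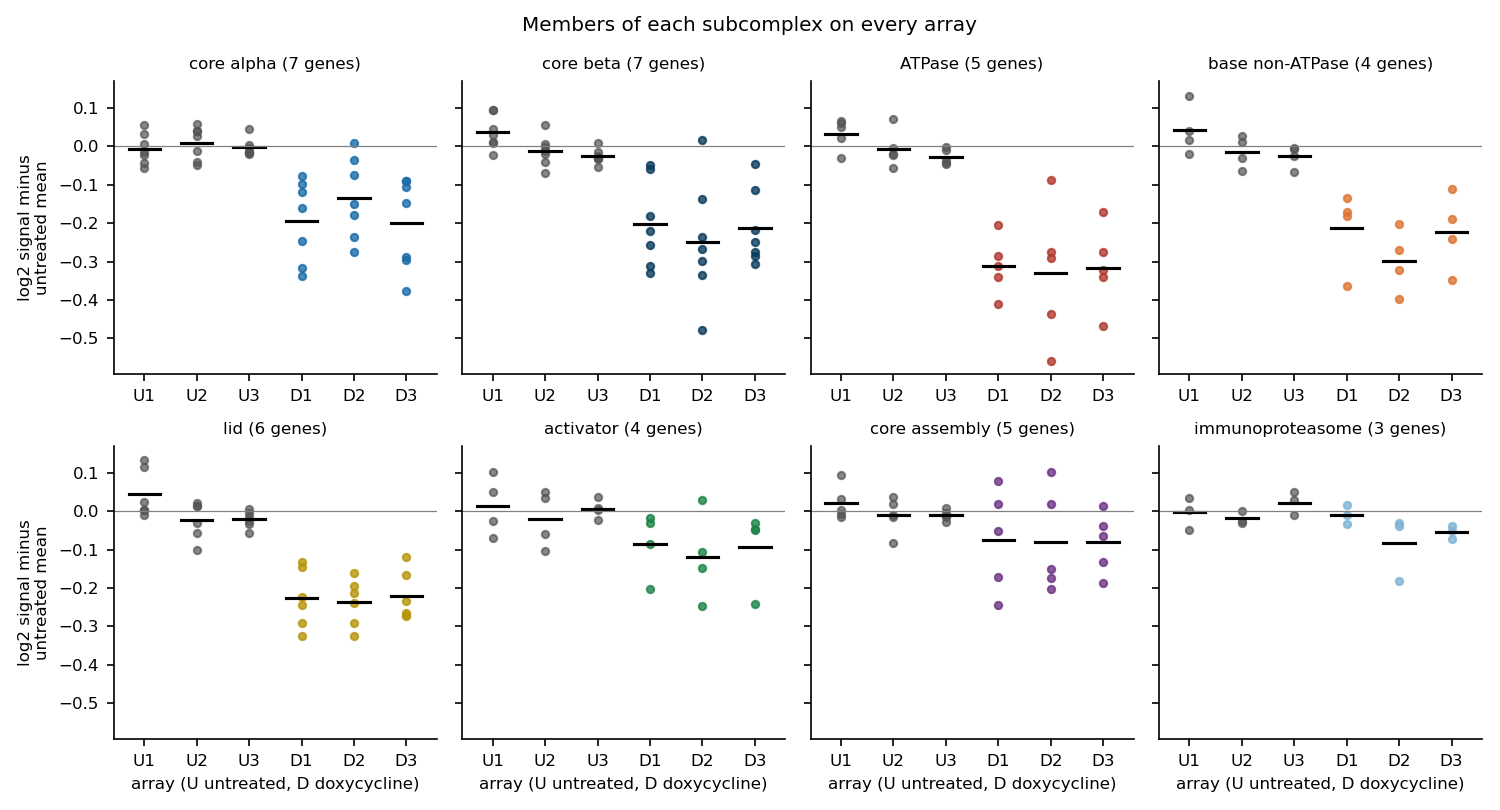
Log2 signal of each member minus its own untreated mean (vertical axis) on each of the 6 arrays (U untreated, D doxycycline; numbers are replicates), with 1 panel per subcomplex; points are genes and black bars their mean. In the alpha, beta, ATPase, base and lid panels the 3 treated bars lie below the 3 untreated bars. They also do so, by smaller margins, in the activator and core assembly panels. In the immunoproteasome panel the treated and untreated bars overlap.

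The ATPases had the lowest median log2 change of the subcomplexes, -0.32, and PSMC3 the largest fall of the 47 genes. PSMC3 read 8.70, 8.66 and 8.68 without the drug and 8.27, 8.12 and 8.21 with it, a log2 change of -0.48 (SE 0.0472, limma adjusted p = 0.00658), or 71.8% of the untreated signal. PSMC4 read 10.15, 10.03 and 10.08 without the drug and 9.80, 9.65 and 9.75 with it, with a change of -0.35 (SE 0.0538, limma adjusted p = 0.0165). PSMC2 read 9.74, 9.85 and 9.73 without the drug and 9.43, 9.48 and 9.45 with it and changed by -0.32 (SE 0.0442, limma adjusted p = 0.0127). PSMC1 read 9.06, 9.01 and 8.96 without the drug and 8.70, 8.73 and 8.73 with it, a change of -0.29 (SE 0.0399, limma adjusted p = 0.0127). In these 4 subunits the gap between the groups was wider than the range within either group. PSMC6 read 6.52, 6.44 and 6.43 without the drug and 6.26, 6.37 and 6.29 with it. Its groups did not overlap, but its change of -0.16 did not pass (limma adjusted p = 0.11). The 5 measured ATPases, all of which are parts of 1 ring, were lower in mean on treatment and 4 of them fell. PSMC3 kept its call with any array left out. PSMC1 lost it without untreated replicate 1 or doxycycline replicate 3, PSMC2 without untreated replicate 3 or doxycycline replicate 3, and PSMC4 without any 1 of these 3.

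The non-ATPase part of the base links this ring to ubiquitin. PSMD1, the large scaffold of the base, read 8.94, 8.99 and 8.96 without the drug and 8.60, 8.64 and 8.61 with it and changed by -0.34 (SE 0.0359, limma adjusted p = 0.00732). PSMD2, the other scaffold, to which ubiquitin shuttle proteins dock, read 9.28, 9.21 and 9.24 without the drug and 9.06, 8.97 and 9.00 with it and changed by -0.23 (SE 0.0414, limma adjusted p = 0.0255). The treated arrays of both scaffolds lay below all untreated ones. The ubiquitin receptors were less clear: ADRM1 read 9.40, 9.21 and 9.21 without the drug and 9.10, 8.88 and 9.08 with it, a change of -0.25 (SE 0.0803, limma adjusted p = 0.117). PSMD4 read 7.39, 7.38 and 7.35 without the drug and 7.24, 7.17 and 7.26 with it, a change of -0.15, limma adjusted p = 0.0766. Both receptors had groups that did not overlap, and neither passed the test. PSMD1 kept its call with any array left out, while PSMD2 kept it only without doxycycline replicate 1.

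In the lid, 5 of 6 measured PSMD subunits fell. PSMD14, the deubiquitinase that cuts the chain from the substrate, read 8.63, 8.58 and 8.62 without the drug and 8.29, 8.37 and 8.35 with it and changed by -0.28 (SE 0.0399, limma adjusted p = 0.0143). PSMD11, a scaffold subunit whose abundance is known to promote assembly of the complete proteasome, read 9.24, 9.26 and 9.21 without the drug and 8.99, 8.94 and 8.96 with it and changed by -0.27 (SE 0.0362, limma adjusted p = 0.0115). PSMD12 read 8.81, 8.83 and 8.82 without the drug and 8.53, 8.62 and 8.55 with it, a change of -0.25 (SE 0.0397, limma adjusted p = 0.0183). These 3 genes kept nearly the same share of their signal, 82.6%, 83% and 84%. PSMD3 read 8.95, 8.77 and 8.78 without the drug and 8.61, 8.51 and 8.60 with it, with untreated replicate 1 higher than the others, and changed by -0.26 (SE 0.0591, limma adjusted p = 0.0495). PSMD6 read 7.57, 7.58 and 7.55 without the drug and 7.43, 7.41 and 7.40 with it and changed by -0.15 (SE 0.0345, limma adjusted p = 0.0478). PSMD3 and PSMD6 lay close to the threshold and lost their calls whichever array was left out. PSMD11, PSMD12 and PSMD14 lost theirs without untreated replicate 1, untreated replicate 3 or doxycycline replicate 3, and PSMD12 also without untreated replicate 2. With the arrays normalized again by quantiles or by their medians, PSMD6 was not called (limma adjusted p = 0.0742 and 0.0529). PSMD8, the other of these PSMD genes, read 9.35, 9.11 and 9.18 without the drug and 9.07, 9.00 and 9.09 with it. It did not pass (-0.16, limma adjusted p = 0.21). The lid subunit SEM1, whose symbol the name rule does not catch, was listed with the cofactors. Its mean signal was 3.79 without the drug and 3.75 with it, in the range of the blood and endothelial markers. The groups of SEM1 overlapped, and it did not pass (-0.041, limma adjusted p = 0.672).

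Among the beta subunits of the core, the 3 that carry protease sites all fell. PSMB6, with the caspase-like site, read 9.83, 9.69 and 9.68 without the drug and 9.40, 9.26 and 9.43 with it, or 9.73 ± 0.082 against 9.36 ± 0.092 (SD, n = 3 per group), a change of -0.37 (SE 0.0627, limma adjusted p = 0.0214). PSMB5, which holds the chymotrypsin-like site that proteasome inhibitors used in the clinic mainly block, read 8.40, 8.37 and 8.34 without the drug and 8.06, 8.03 and 8.09 with it, or 8.37 ± 0.03 against 8.06 ± 0.03 (SD, n = 3 per group), a change of -0.31 (SE 0.0378, limma adjusted p = 0.0102). PSMB7, with the trypsin-like site, read 9.07, 9.04 and 9.07 without the drug and 8.81, 8.79 and 8.82 with it, or 9.06 ± 0.017 against 8.80 ± 0.01 (SD, n = 3 per group), a change of -0.26 (SE 0.0341, limma adjusted p = 0.0115). The groups did not overlap in any of the 3. Of the 4 non-catalytic beta subunits, PSMB3 and PSMB2 also fell. PSMB3 read 10.89, 10.72 and 10.77 without the drug and 10.58, 10.50 and 10.51 with it and changed by -0.27 (SE 0.0531, limma adjusted p = 0.0333). PSMB2 read 7.34, 7.34 and 7.32 without the drug and 7.15, 7.10 and 7.12 with it and changed by -0.21 (SE 0.0357, limma adjusted p = 0.0212). PSMB1 (-0.099, limma adjusted p = 0.24) and PSMB4 (-0.029, limma adjusted p = 0.73) did not pass, and in PSMB4 the groups overlapped. PSMB5 lost its call only without doxycycline replicate 3, PSMB7 without untreated replicate 1, untreated replicate 3 or doxycycline replicate 3, PSMB2 and PSMB6 kept theirs only without doxycycline replicate 1, and PSMB3 lost it whichever array was left out.

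Of the 7 alpha subunits 4 fell, all 7 had lower means, and in 6 every treated array lay below every untreated one. PSMA3 read 8.06, 8.02 and 8.01 without the drug and 7.69, 7.80 and 7.66 with it, a change of -0.32 (SE 0.0473, limma adjusted p = 0.0158). PSMA7 read 8.41, 8.31 and 8.34 without the drug and 8.10, 8.08 and 8.06 with it and changed by -0.27 (SE 0.0407, limma adjusted p = 0.0158). PSMA2 read 7.68, 7.63 and 7.72 without the drug and 7.36, 7.53 and 7.39 with it, with a change of -0.25 (SE 0.0551, limma adjusted p = 0.0448). In all 3 the highest treated array lay below the lowest untreated one. PSMA5 also fell, by a smaller amount, and read 6.47, 6.53 and 6.48 without the drug and 6.33, 6.31 and 6.35 with it. This was 6.49 ± 0.035 against 6.33 ± 0.016 (SD, n = 3 per group), a change of -0.16 (SE 0.037, limma adjusted p = 0.0495). PSMA2 and PSMA5 lost their calls when the arrays were normalized again by quantiles or by their medians, with limma adjusted p between 0.053 and 0.0712. PSMA7 and PSMA3 were not called without untreated replicate 1, untreated replicate 3 or doxycycline replicate 3, nor PSMA3 without untreated replicate 2. PSMA2 was called only without doxycycline replicate 2 among these fits, and PSMA5 in none. PSMA4 (-0.093, limma adjusted p = 0.209), PSMA1 (-0.082, limma adjusted p = 0.278) and PSMA6 (-0.053, limma adjusted p = 0.577) did not pass. The changes of the 7 alpha mRNAs ranged from -0.32 to -0.053.

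Cells exposed to interferon make an immunoproteasome, in which PSMB8 replaces PSMB5, PSMB9 replaces PSMB6 and PSMB10 replaces PSMB7. None of these 3 passed limma's test, and none had an unadjusted p under 0.05. PSMB9 read 5.59, 5.64 and 5.68 without the drug and 5.65, 5.60 and 5.56 with it, a change of -0.031, limma adjusted p = 0.728. PSMB10 read 6.27, 6.24 and 6.30 without the drug and 6.26, 6.09 and 6.23 with it, a change of -0.077, limma adjusted p = 0.456. PSMB8 read 4.46, 4.40 and 4.41 without the drug and 4.39, 4.39 and 4.37 with it, a change of -0.039, limma adjusted p = 0.588. The groups of PSMB8 did not overlap, and those of PSMB9 and PSMB10 did. The signal of PSMB8 lay within the range of the blood and endothelial markers, so a change of this gene may not have been detectable. PSMB9 and PSMB10 lay above that range but within that of the fibroblast markers, which reached 6.32. The same limit may therefore hold for them. The arrays carry 8 probe sets each for PSMB8 and PSMB9, and the brightest was used.

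Within each array, the constitutive subunit was set against its replacement. With treatment the difference PSMB6 minus PSMB9 dropped by 0.34, with SDs of 0.128 and 0.102 within the untreated and treated groups. PSMB7 minus PSMB10 dropped by 0.181 (SDs 0.017 and 0.084). In both pairs the treated and untreated arrays did not overlap. PSMB5 minus PSMB8 dropped by 0.268 (SDs 0.022 and 0.04), but with PSMB8 in the range of the blood and endothelial markers this value adds nothing to the fall of PSMB5 itself. With PSMB9 and PSMB10 in the range of the fibroblast markers, the differences of the other pairs may likewise add little to the falls of PSMB6 and PSMB7. The exact two-sided permutation test gave p = 0.1 for each pair, also after Benjamini-Hochberg adjustment over the 3, and cannot give less with these numbers of arrays.

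**Figure D3:**
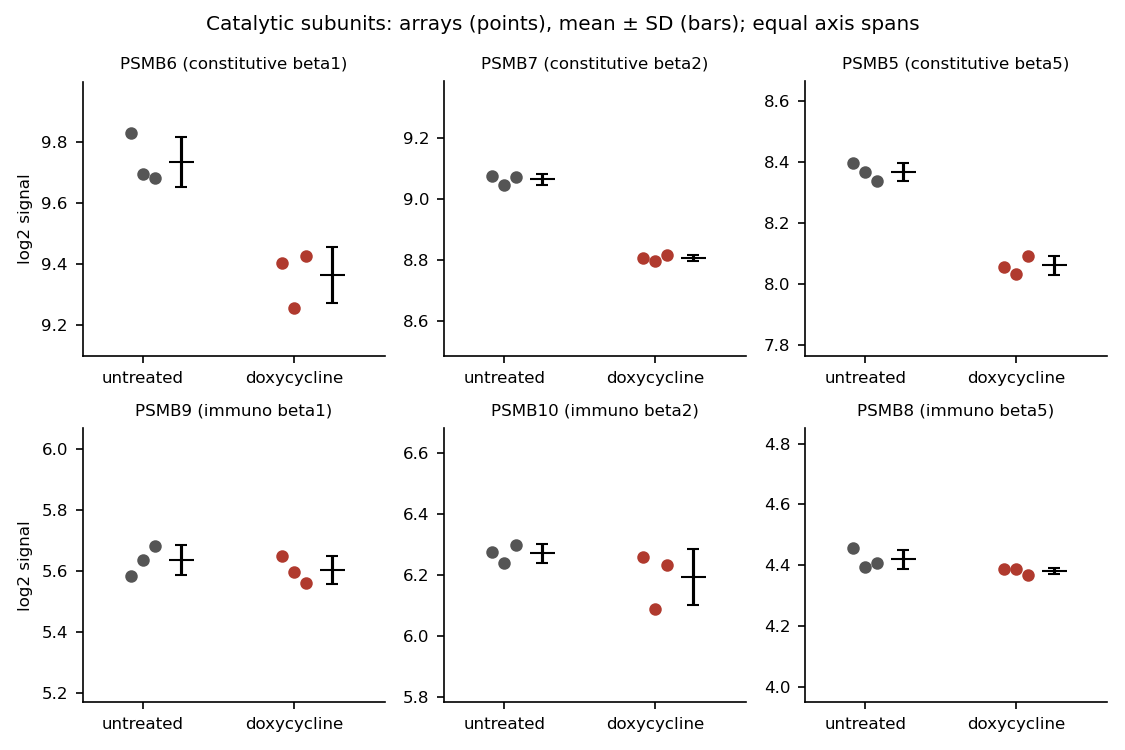
Log2 signal (vertical axes, all spanning the same log2 range) of the constitutive catalytic subunits in the upper row and of the immunoproteasome subunits that replace them in the lower row; points are cultures and bars are mean ± SD of 3. The treated points lie below all untreated points for PSMB6, PSMB7 and PSMB5, and also, by a narrow margin, for PSMB8, whose mean changes by -0.039, while the groups overlap for PSMB9 and PSMB10.

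The other alternative core subunits are made in single tissues. PSMA8, which belongs to the testis, read 2.03 to 2.10 over the 6 arrays, and its change was -0.0072, limma adjusted p = 0.936. PSMB11, made in the thymus cortex, read 4.45, 4.37 and 4.43 without the drug and 4.34, 4.21 and 4.25 with it and did not pass (-0.15, limma adjusted p = 0.113). Both lay in the signal range of the blood and endothelial markers.

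Activators cap the core in place of the regulatory particle. PSME3, which forms a nuclear activator by itself, read 8.89, 8.96 and 8.89 without the drug and 8.71, 8.67 and 8.67 with it, and changed by -0.23 (SE 0.0394, limma adjusted p = 0.0218). Its treated arrays lay below all untreated ones, and the call was kept only without doxycycline replicate 1 among the fits that leave out 1 array. PSME1 (-0.052, limma adjusted p = 0.561) and PSME2 (-0.094, limma adjusted p = 0.411), which together form the interferon-inducible activator, did not pass, and their groups overlapped. PSME4, a nuclear activator linked to the breakdown of acetylated histones, read 7.60, 7.70 and 7.71 without the drug and 7.64, 7.70 and 7.62 with it, a change of -0.016, limma adjusted p = 0.876. PSMF1, which inhibits the core in the test tube, read 7.75, 7.68 and 7.71 without the drug and 7.75, 7.73 and 7.76 with it, a change of 0.031, limma adjusted p = 0.676.

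Of 8 assembly factors, 1 fell. POMP, which guides the beta ring onto the alpha ring, read 8.33, 8.29 and 8.29 without the drug and 8.13, 8.10 and 8.12 with it and changed by -0.19 (SE 0.0358, limma adjusted p = 0.0301), a call lost whichever array was left out. PSMG1, which pairs with PSMG2 to build the alpha ring, read 7.82, 7.86 and 7.80 without the drug and 7.58, 7.65 and 7.70 with it and lay just outside the threshold, with a change of -0.18, limma adjusted p = 0.0553. Its partner PSMG2 (-0.024, limma adjusted p = 0.763) and the other pair of alpha-ring chaperones, PSMG3 (0.039, limma adjusted p = 0.772) and PSMG4 (-0.039, limma adjusted p = 0.72), did not pass, and their groups overlapped. Of the chaperones that build the base, PSMD9 read 6.56, 6.45 and 6.52 without the drug and 6.39, 6.27 and 6.36 with it and did not pass (-0.17, limma adjusted p = 0.0887). The other base chaperones, PSMD10 (-0.046, limma adjusted p = 0.642) and PSMD5 (0.0088, limma adjusted p = 0.944), had overlapping groups.

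**Figure D4:**
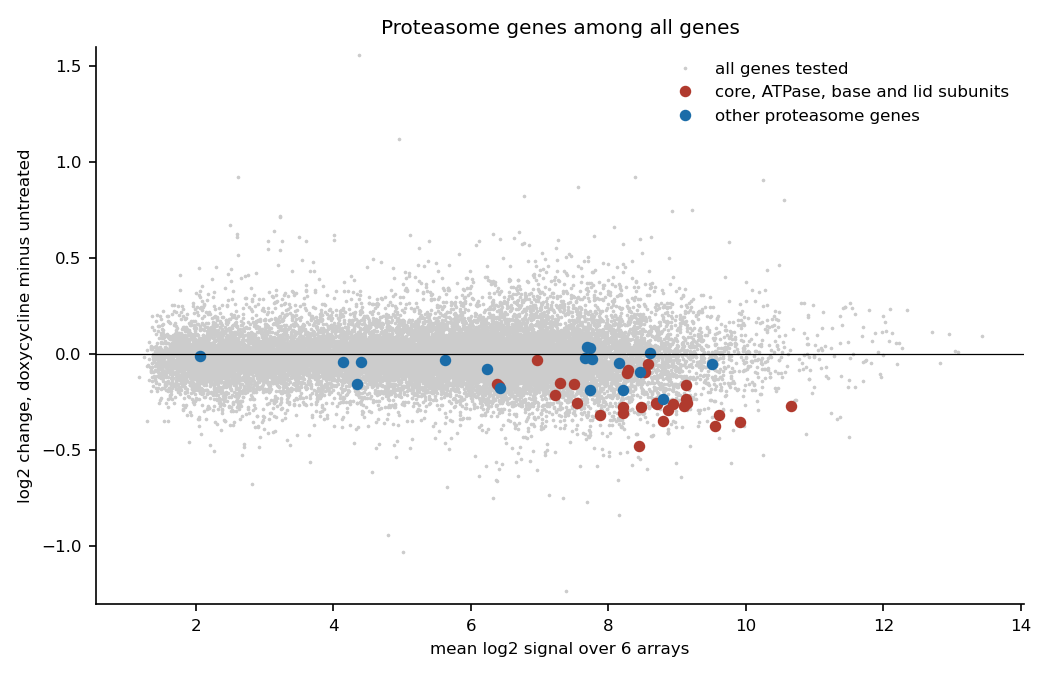
Log2 change (vertical axis) against mean log2 signal over the 6 arrays (horizontal axis) for all 22411 genes tested (grey), the 29 structural subunits (red) and the 18 other proteasome genes (blue). The structural subunits sit at signals of 6.38 to 10.66 on the lower side of the cloud, with none above zero.

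Members also differed in how they varied within a group. Untreated replicate 1 was the highest of the untreated arrays in 27 of the 47 genes, and doxycycline replicate 2 was the lowest of the treated arrays in 24. The same arrays were highest and lowest in the mean over all genes tested. That mean was 5.412, 5.408 and 5.406 without the drug and 5.406, 5.377 and 5.397 with it. How many of all genes had these patterns was not counted, so they cannot be called particular to the members. Among the members both held in 18 genes, including PSMB6, PSMC4, PSMD8 and ADRM1. Of the 18, 10 fell, beside 22 of all 47. The opposite, lowest in untreated replicate 1 and highest in doxycycline replicate 2, held in 8 genes, among them PSMA6, PSMD5 and PSMD1, and 2 of these fell. The SD of a gene within a group had a median of 0.043 and reached 0.125 in ADRM1. What sets the arrays of a group apart is not given in the labels and was not tested.

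Genes that regulate the transcription of proteasome genes did not pass the test. Of 12 measured, none rose or fell by limma, with 2 higher and 1 lower at an unadjusted p under 0.05, beside 9.85% and 12.7% of all genes at that level. NFE2L1, the factor that induces proteasome genes, read 8.49, 8.41 and 8.44 without the drug and 8.45, 8.36 and 8.41 with it, a change of -0.044, limma adjusted p = 0.604. FBXW7, a ubiquitin ligase subunit that targets NFE2L1, had the smallest p and read 6.13, 6.11 and 6.15 without the drug and 6.25, 6.28 and 6.33 with it, a change of 0.16, limma adjusted p = 0.0569. With repeated quantile normalization, background subtraction, trend and robust settings, array weights or without dim genes, 2 genes of this list rose, FBXW7 among them (limma adjusted p between 0.016 and 0.0468). With array weights or without dim genes 1 gene fell.

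Of 19 genes listed as proteasome cofactors, 3 fell and none rose. Over all genes 3.27% fell and 2.93% rose. Among genes with a mean log2 signal of at least 6 these shares were 6.25% and 5.22%. The 3 cofactors that fell encode proteins known to work as 1 complex. VCP, the ATPase that pulls ubiquitinated proteins out of complexes and membranes, read 9.55, 9.49 and 9.56 without the drug and 9.26, 9.22 and 9.26 with it, a change of -0.29 (SE 0.0383, limma adjusted p = 0.0115). Its adaptor UFD1 read 7.11, 7.08 and 7.05 without the drug and 6.79, 6.69 and 6.79 with it and changed by -0.32 (SE 0.0436, limma adjusted p = 0.0116). The partner of UFD1, NPLOC4, read 9.12, 9.13 and 9.09 without the drug and 8.88, 8.85 and 8.84 with it and changed by -0.25 (SE 0.0356, limma adjusted p = 0.0131). The treated arrays of all 3 lay below every untreated array, as in 16.7% of all genes. The median log2 change of the 19 was -0.041. With background subtraction, trend and robust settings, array weights or without dim genes 5 of the list fell, and without dim genes 1 rose. None of the list was called without untreated replicate 1, untreated replicate 3 or doxycycline replicate 3, and NPLOC4 was also lost without untreated replicate 2.

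Of 9 measured genes for ubiquitin and its conjugation, 1 fell and 1 rose, beside 3.27% and 2.93% of all genes. UBB, a polyubiquitin gene, read 8.41, 8.41 and 8.44 without the drug and 8.25, 8.27 and 8.25 with it, a change of -0.16 (SE 0.0345, limma adjusted p = 0.0403). UBE2D4, a conjugating enzyme, read 7.54, 7.59 and 7.56 without the drug and 7.78, 7.71 and 7.74 with it, a change of 0.18 (SE 0.0385, limma adjusted p = 0.0431). The groups of UBB and UBE2D4 did not overlap, where treated arrays lay entirely below in 16.7% of all genes and entirely above in 12.5%. Both calls were lost whichever array was left out, and none of the list fell with the arrays normalized again by quantiles or by their medians. The list had 2 genes that fell with background subtraction or trend and robust settings, and 3 with array weights or without dim genes.

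Antigen presentation by MHC class I uses peptides made by the proteasome. Of 16 measured genes of this path, 3 rose and none fell, where 2.93% of all genes rose and 3.27% fell. HLA-E, a class I molecule read by natural killer cells, read 9.06, 8.96 and 8.99 without the drug and 9.30, 9.20 and 9.30 with it, a change of 0.26 (SE 0.0479, limma adjusted p = 0.0279). B2M, the light chain of all class I molecules, read 9.18, 9.18 and 9.24 without the drug and 9.41, 9.42 and 9.41 with it and changed by 0.21 (SE 0.0357, limma adjusted p = 0.0218). IRF2, a transcription factor of the interferon response rather than a presenting molecule, read 6.54, 6.54 and 6.59 without the drug and 6.80, 6.90 and 6.86 with it and changed by 0.30 (SE 0.0412, limma adjusted p = 0.0126). In each of the 3 every treated array was above every untreated one, as in 12.5% of all genes. None of the 3 was called without any 1 of the untreated replicates or doxycycline replicate 3. HLA-E also lost its call without doxycycline replicate 1, and B2M without doxycycline replicate 2. With repeated quantile normalization, background subtraction, trend and robust settings, array weights or without dim genes, 5 genes of the list rose. With each of these except quantile normalization, 2 genes fell.

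**Figure D5:**
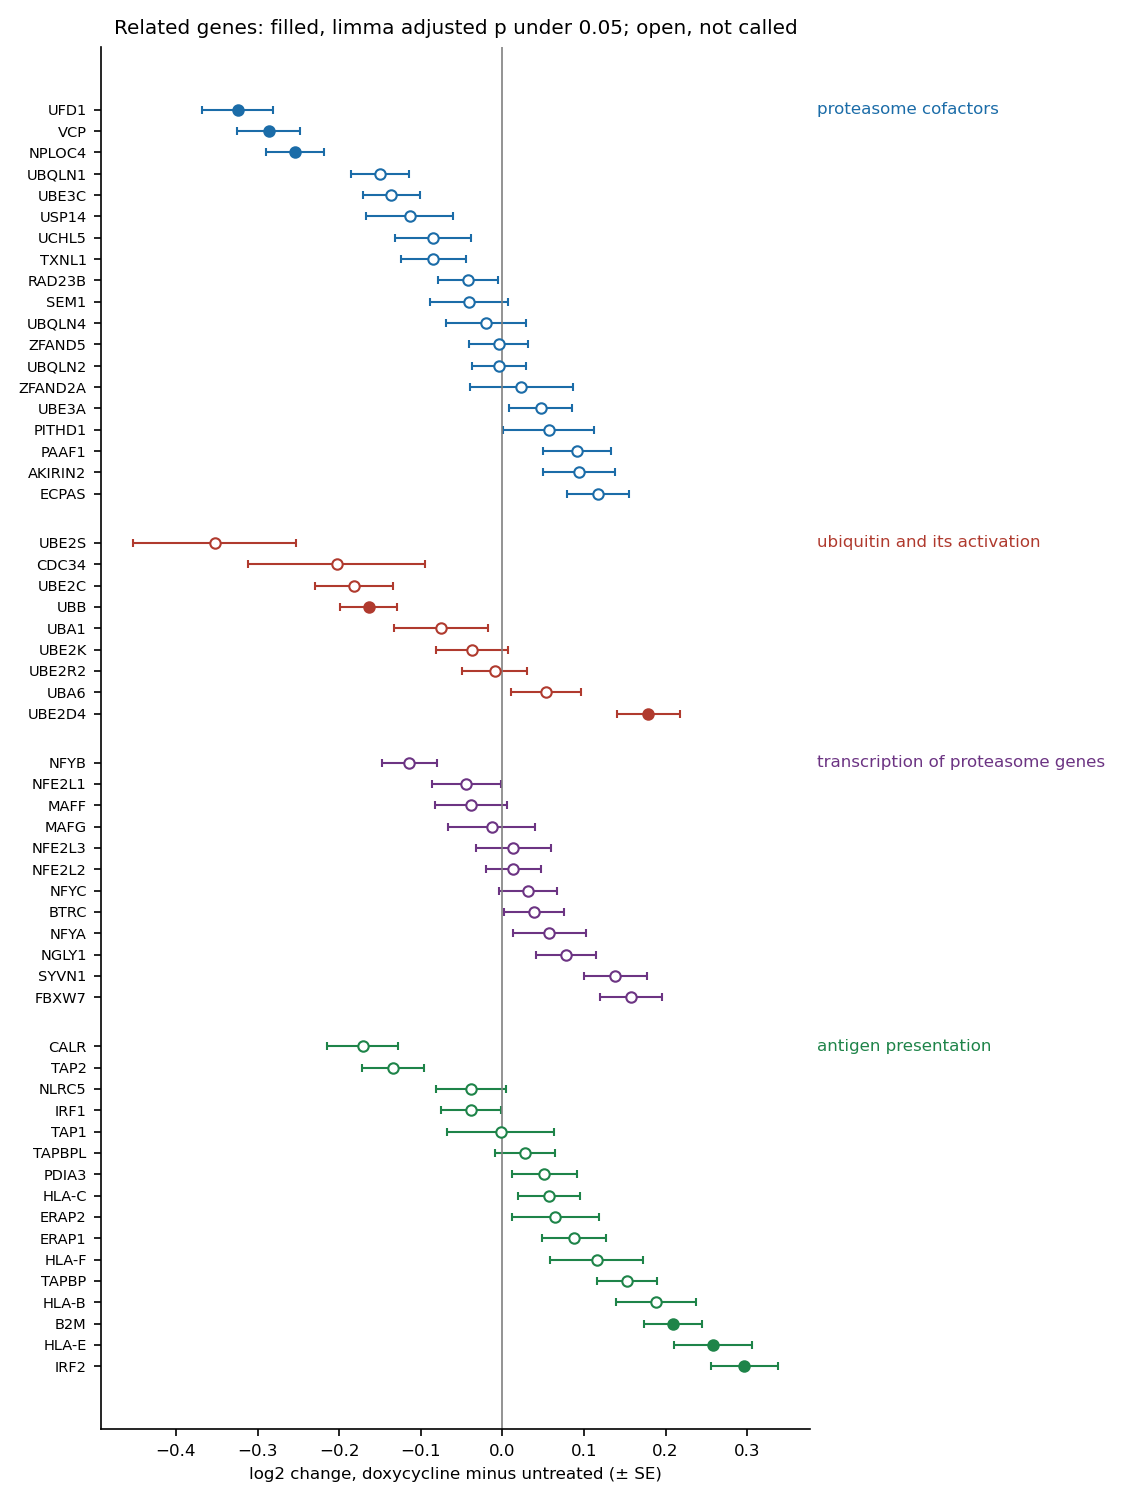
Log2 change (treated minus untreated, horizontal axis) with its standard error for the measured genes of 4 related lists; filled points were called. The 3 filled cofactors are UFD1, VCP and NPLOC4, all between -0.32 and -0.25, and the 3 filled antigen presentation genes, B2M, HLA-E and IRF2, lie between 0.21 and 0.30.

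A pair of other large complexes was measured for comparison, with no test of the difference between complexes. Over all genes 3.27% fell and 2.93% rose, and treated arrays lay entirely below in 16.7% and entirely above in 12.5%. At an unadjusted limma p under 0.05, 12.7% of all genes were lower and 9.85% higher. Of the 9579 genes with a mean log2 signal of at least 6, 6.25% fell and 25.2% had treated arrays entirely below. At an unadjusted p under 0.05, 1880 of these were lower and 1454 higher. In the COP9 signalosome, which is built like the lid, 1 of 10 genes fell, COPS3 (-0.17, limma adjusted p = 0.0427), and none rose. The median log2 change of the 10 was -0.037, with treated arrays entirely below in 5 and entirely above in 1. Of the 10, 3 were lower at an unadjusted p under 0.05, and 9 had a mean log2 signal of at least 6. In the CCT chaperonin all 7 genes had lower means, as had 13050 of all 22411 genes, and the median was -0.13. Treated arrays lay entirely below the untreated ones in 6 of the 7, and 4 were lower at an unadjusted p under 0.05. All 7 had a mean log2 signal of at least 6. Of all 7, 1 fell, CCT2 (-0.26, limma adjusted p = 0.0105), and none rose. The CCT count was 2 with the arrays centred on their medians, 3 with background subtraction, without dim genes or with trend and robust settings, and 4 with array weights. In the last 4 of these settings 2 COP9 genes fell. COPS3 lost its call whichever array was left out, and CCT2 without untreated replicate 3 or doxycycline replicate 3. The structural proteasome subunits had 20 of 29 called and a median of -0.25. Treated arrays lay entirely below in 27 of these 29, and 25 were lower at an unadjusted p under 0.05.

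The remaining symbols caught by the pattern are not proteasome subunits. PSMC3IP, which acts in homologous recombination, read 6.97, 6.84 and 6.91 without the drug and 6.63, 6.68 and 6.68 with it and fell, with a change of -0.24 (SE 0.0451, limma adjusted p = 0.0293), a call lost whichever array was left out. PSME3IP1, whose protein binds PSME3, did not (-0.0056, limma adjusted p = 0.958). The antisense RNAs PSMD6-AS2 (0.27, limma adjusted p = 0.0579), PSMG3-AS1 (-0.23, limma adjusted p = 0.067) and PSMA3-AS1 (0.068, limma adjusted p = 0.426) did not pass, nor did the pseudogene CUTALP (-0.026, limma adjusted p = 0.812), which the array annotation lists as PSMD5-AS1. PSMD6-AS2 was higher and PSMG3-AS1 lower on every treated array. The pseudogene PSME2P2 (-0.10, limma adjusted p = 0.514) is a copy of PSME2, and probes may not separate the pair. RefSeq lists 49 processed or other pseudogene copies of 21 members, 13 of them of PSMC1, so signals of these members may include their copies.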

How the data were processed

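Total RNA of 6 cultures was measured on 1 Affymetrix array each, and the authors deposited RMA values on a log2 scale, per the submitters' processing notes and the values themselves, 1 for each probe set. Neither software version nor build or annotation was given in the sources used here. The values ran from 0.485 to 14.2, with array medians of 4.12 to 4.17. No detection calls accompany the values, and precision is limited by the number of arrays. The labels call the cultures independent.

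Of 70523 probe sets, 23781 carried 1 gene symbol in the platform annotation, 1543 several and 45199 were unnamed here. RefSeq's table of genes served to update 306 symbols, which left 22411 genes. For the 528 with more than 1 probe set, the one with the highest mean was used. The test was limma's (version 3.58.1, R 4.3.3), from lmFit and eBayes with treatment as the only term and Benjamini-Hochberg adjustment over all genes. Alternatives were repeated quantile normalization, median centring, subtraction of each array's 5th percentile with a floor of 16, removal of genes under the median level (5.58), trend and robust eBayes, array weights, probe set means, a block on the replicate number, and leaving out each array. The limma procedure was tested on simulated data. Tables and figures used Python 3.11.15, pandas 2.3.3 and matplotlib 3.10.9.

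Members, lists and tests were chosen with earlier results of these data known. Every member is named. Values per array are given for members that passed and for the largest change of a subcomplex, and also for other members where they show the groups. From related lists, genes past the threshold (at most 4) or the one with the smallest p are named. NFE2L1 and SEM1 were added after their values were seen.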

Additional observations from a re-analysis of the deposited data

How the results depend on the processing

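The 22 members that fell kept a negative change under all alternatives run, and SLBP kept its call throughout (limma adjusted p at most 0.0425). All 22 kept their calls with background subtraction, without dim genes, with trend and robust settings, with array weights and with probe set means, but in the first 4 of these the share of all genes that fell was also higher (7.31%, 12.6%, 4.89% and 7.65%, against 3.27%). With repeated quantile normalization or median centring 19 did, PSMA2, PSMA5 and PSMD6 being lost, and 2 alpha subunits fell in each. With background subtraction, without dim genes, with trend and robust settings and with array weights, 2 core assembly genes fell in place of 1. Without dim genes all 4 base genes and 1 base assembly chaperone fell, and with array weights 1 base assembly chaperone and 1 tissue-restricted subunit did. The replicate numbers were not taken to pair the cultures: deviations of same-numbered arrays correlated at 0.03, -0.001 and -0.016 over all genes, and at 0.411, 0.397 and -0.311 over the 47 members. With the replicate block, which leaves fewer residual degrees of freedom, 4 members fell (PSMC2, PSMC3, PSMC4 and PSMD1), as did 0.776% of all genes. By subcomplex this was 1 in the base and 0 in the alpha ring, beta ring, lid, activators and core assembly; 1 related gene fell and 0 rose. Leaving out 1 array gave 2 to 16 members fallen: 1 to 4 ATPases, 1 to 2 base genes, 0 to 3 alpha, 0 to 4 beta, 0 to 3 lid, 0 to 1 activator and 0 core assembly genes. In the related lists, 6 genes fell and 4 rose; the numbers were 5 and 8 with quantile normalization, 14 and 8 with background subtraction and with trend and robust settings, 16 and 9 without dim genes, 17 and 8 with array weights, and 0 to 4 and 0 to 2 with 1 array left out. Signs turned only among members without a call. PSME3IP1 changed by 0.015 with quantile normalization and 0.009 with array weights, PSMA8 by 0.018 with quantile normalization, and PSMG3 by -0.022 with array weights. Leaving out 1 array moved PSME3IP1 between -0.03 and 0.019, PSMA8 between -0.019 and 0.014, PSMG3 between -0.002 and 0.09, PSMD5 between -0.026 and 0.051, PSME4 between -0.051 and 0.002, CUTALP between -0.063 and 0.01, and PSMG4 between -0.068 and 0.016. The cause of these differences was not tested. Signal over background limits PSMB8, PSMB11, PSMA8 and PSMG4, which lay under 4.59. It may also limit PSMB9 and PSMB10, which lay under the 6.32 reached by the fibroblast markers.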
